A study of Mus musculus with 8 samples.

Results

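Interferon-stimulated genes are switched on when a cell senses type I interferon. Their mRNA was measured by RNA sequencing in pre-pro-B and pro-B cells, early stages of the B lineage, which were taken from C57BL/6J bone marrow by flow sorting. The 9 genes Ifit1, Ifit2, Ifit3, Isg15, Usp18, Oasl2, Mx1, Irf7 and Ifi27l2a were taken by symbol, as known type I interferon targets, from tables of 52550 genes, and each symbol matched 1 row. The mice were untreated and were either wild type (WT) or lacked lactoferrin (Lf-/-), an iron-binding protein of milk and neutrophil granules encoded by Ltf. The series asked how the loss of lactoferrin changes gene expression at the 2 stages. The libraries analysed were 2 of WT pre-pro-B, 2 of Lf-/- pre-pro-B, 1 of WT pro-B and 2 of Lf-/- pro-B cells, and WT pro-B replicate 2 was not analysed here. The labels give no age, and do not say whether a library came from 1 mouse or from a pool, so p-values measure only the spread between these libraries. They repeat WT1, WT2, KO1 and KO2 at both stages without saying whether these mark the same mice. The main stage tests took the libraries as unpaired. The study's methods give a number of mice per group that differs from the number of samples per group in the labels. The knockout was of the whole mouse and was not limited to B-lineage cells.

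Type I interferons bind the receptor IFNAR1/IFNAR2, and the kinases JAK1 and TYK2 then phosphorylate STAT proteins. With IRF9 these form a complex that enters the nucleus and binds interferon-stimulated response elements in the promoters of its targets. Many cells keep a low tonic level of this signal without infection, and in blood cell precursors such genes are known as a readout of interferon exposure. The IFIT proteins bind foreign RNA, ISG15 is a ubiquitin-like modifier, and USP18 removes ISG15 and dampens the receptor. OASL2 belongs to the 2'-5' oligoadenylate synthetase family that senses double-stranded RNA. MX1 is a GTPase that blocks influenza virus, and C57BL/6 mice carry a defective allele of its gene. IRF7 drives transcription of the interferon genes themselves, and Ifi27l2a encodes a small interferon-induced membrane protein.

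The core of the response element is shown here because many promoters of interferon-stimulated genes are known to hold it. RefSeq promoter windows (GRCm38.p6, 250 bases before to 50 bases after each start) were held for 6 of the 9 genes: Ifit1, Ifit2, Ifit3, Isg15, Irf7 and Oasl2. The letters GAAANNGAAA, searched on both strands (TTTCNNTTTC on the other) with overlapping matches counted, occurred in 3 of the 6. They matched 3 times in the window of Isg15 and 2 times each in those of Ifit1 and Ifit3. Each stretch is written 5′ to 3′ on the strand of the gene with 25 bases on either side, and capitals mark the matches.
Isg15 (chr4:156200850-156200921, minus strand): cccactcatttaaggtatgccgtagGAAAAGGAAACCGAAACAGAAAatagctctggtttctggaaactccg
Ifit1 (chr19:34640760-34640838, plus strand): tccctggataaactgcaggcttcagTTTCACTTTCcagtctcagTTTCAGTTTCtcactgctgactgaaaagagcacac
Ifit3 (chr19:34583348-34583441, plus strand): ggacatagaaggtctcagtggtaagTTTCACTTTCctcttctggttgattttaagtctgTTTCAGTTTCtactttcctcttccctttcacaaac
In Isg15 the 3 matches overlapped in 1 run that began 78 bases before the start. In Ifit1 the first match began 104 bases before the start and the last match ended 76 bases before it. In Ifit3 the first began 156 bases before the start and the last ended 113 bases before it. The windows of Ifit2, Irf7 and Oasl2 did not hold these letters, which says nothing about other forms of the element. Of all 32851 promoter windows, which belong to 27025 genes, 3.44% held at least 1 match and 0.225% held at least 2. Isg15 and Ifit1 were listed at 0 in the library where Ifit3 was highest, as given below.

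The libraries were read first for depth and for the labels. Ltf was at 2143, 2731 and 2650 FPKM (fragments per kilobase of transcript per 1000000 fragments) in the WT libraries and between 88.2 and 168 FPKM in the 4 Lf-/- libraries, as the labels state. From the step between low values, the depth of 6 libraries was put at 11.0 to 15.4 times 1000000 fragments. It could not be read for Lf-/- pre-pro-B replicate 2. That library stood apart: 12172 genes were above 0 in it, against 19477 to 20250 in the others. Of 7741 genes with at least 1 FPKM in every other library, 678 (8.76%) were listed at 0 in it, against 0 to 2 genes for any other library. Ifit1, Ifit2 and Isg15 were among the genes it listed at 0, so results that rest on it are given with and without it. Neutrophil granule genes, 18 on the list, made up 25.7% to 53.6% of all FPKM, and the 15 early B lineage genes 0.0277% to 0.429%.

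**Figure D1:**
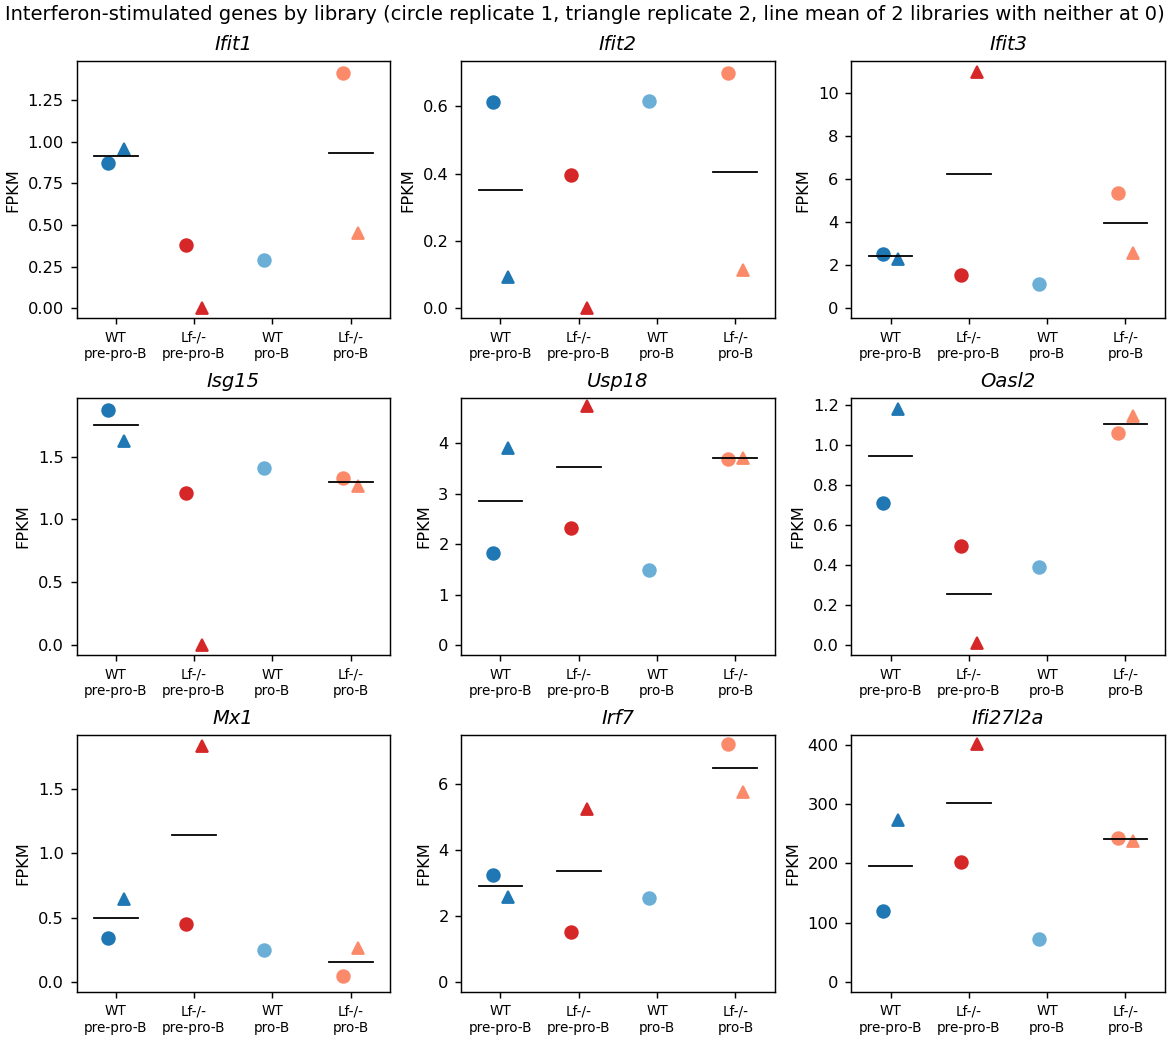
FPKM of each of the 9 genes (linear axes, a separate scale per panel) in the 4 groups, with a point per library and a line at the mean where both libraries of a group were above 0. Only Ifi27l2a exceeded 100 FPKM, and Lf-/- pre-pro-B replicate 2 held the highest value of Ifit3, Mx1, Usp18 and Ifi27l2a but listed Ifit1, Ifit2 and Isg15 at 0.

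The 9 genes differed far more from each other than between groups, and Ifi27l2a carried most of their signal. FPKM is scaled per length, so levels can be set side by side. Ifi27l2a made up 90% to 96.1% of the summed FPKM of the 9 genes, which ran from 80.8 FPKM in WT pro-B to 424 FPKM in Lf-/- pre-pro-B replicate 2. The other 8 summed to 8.10 FPKM in WT pro-B and to 22.8 FPKM in Lf-/- pre-pro-B replicate 2. Between 5 and 7 of the 9 genes reached 1 FPKM in any library. Irf7, Ifit3 and Usp18 followed Ifi27l2a at a few FPKM, Isg15 lay near 1 FPKM, and Oasl2, Ifit1, Mx1 and Ifit2 were mostly below it. Low levels rest on few fragments: about 10 to 16 for Isg15, 11 to 41 for Ifit1 and 27 to 103 for Ifit3 in the 6 libraries of known depth, against 471 to 1700 for Ifi27l2a.

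Ifi27l2a (chromosome 12, 103442167 to 103443680, minus strand, GENCODE M21 on GRCm38, as for the genes that follow) was at 120 and 272 FPKM in WT pre-pro-B, 203 and 401 FPKM in Lf-/- pre-pro-B, 72.7 FPKM in WT pro-B, and 243 and 238 FPKM in Lf-/- pro-B cells. The WT pro-B library was the lowest of the 7, and the Lf-/- pro-B libraries lay within the range of the pre-pro-B libraries. The neighbouring copy Ifi27l2b, identical to Ifi27l2a at 87.2% of 273 aligned transcript bases, was listed at 0 in all 7 libraries. Ifi27, the next gene on the chromosome, ran from 39.2 FPKM in WT pro-B to 84.7 FPKM in Lf-/- pre-pro-B replicate 2.

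Irf7 (chromosome 7, 141262706 to 141266481, minus strand) was at 3.25 and 2.57 FPKM in WT pre-pro-B, 1.497 and 5.25 FPKM in Lf-/- pre-pro-B, 2.55 FPKM in WT pro-B, and 7.21 and 5.75 FPKM in Lf-/- pro-B cells. The Lf-/- pro-B libraries were the 2 highest, and the Lf-/- pre-pro-B libraries lay on either side of both WT pre-pro-B libraries. Irf7 overlaps Phrf1 on the opposite strand, which was at 0.647 to 1.65 FPKM. Whether the counting used strand is not given in the sources used here, so reads of such pairs may not be told apart.

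The Ifit genes sit side by side on chromosome 19 between 34550694 and 34650009 (GRCm38), in the order Ifit2, Ifit3, Ifit1bl1, Ifit3b, Ifit1bl2 and Ifit1. Ifit3 was at 2.53 and 2.32 FPKM in WT pre-pro-B, 1.54 and 11.0 FPKM in Lf-/- pre-pro-B, 1.12 FPKM in WT pro-B, and 5.38 and 2.56 FPKM in Lf-/- pro-B cells. Its highest value was 9.86 times its lowest. Its copy Ifit3b shares 97.8% of 1700 transcript bases with it and has the same promoter stretch as printed above, at chr19:34607744-34607837. Ifit3b was at 0.304 to 2.42 FPKM, highest in Lf-/- pro-B replicate 1, and it stood at only 0.832 FPKM where Ifit3 was highest. How reads were split between the copies is not given in the sources used here, so each one's level is uncertain.

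Ifit1 was at 0.872 and 0.959 FPKM in WT pre-pro-B, 0.379 FPKM and listed at 0 in Lf-/- pre-pro-B, 0.292 FPKM in WT pro-B, and 1.41 and 0.451 FPKM in Lf-/- pro-B cells. Its neighbours Ifit1bl1 and Ifit1bl2 were also highest in Lf-/- pro-B replicate 1, at 1.07 and 2.44 FPKM. Ifit2 was at 0.613 and 0.0920 FPKM in WT pre-pro-B, 0.396 FPKM and listed at 0 in Lf-/- pre-pro-B, 0.616 FPKM in WT pro-B, and 0.699 and 0.113 FPKM in Lf-/- pro-B cells. Replicates of Ifit2 were nearly as far apart as its whole range, so no order of its groups could be read.

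Isg15 (chromosome 4, 156199424 to 156200818, minus strand) was at 1.87 and 1.63 FPKM in WT pre-pro-B, 1.21 FPKM and listed at 0 in Lf-/- pre-pro-B, 1.41 FPKM in WT pro-B, and 1.33 and 1.27 FPKM in Lf-/- pro-B cells. Leaving out Lf-/- pre-pro-B replicate 2, it was the most even of the 9 genes. Usp18 (chromosome 6, 121245906 to 121270917, plus strand), the protease that acts on ISG15, was at 1.83 and 3.90 FPKM in WT pre-pro-B, 2.33 and 4.74 FPKM in Lf-/- pre-pro-B, 1.49 FPKM in WT pro-B, and 3.69 and 3.71 FPKM in Lf-/- pro-B cells. Replicate 2 was the higher one in both pre-pro-B groups, and WT pro-B was again the lowest library. Usp18 overlaps the long non-coding RNA Gm44148 on the opposite strand, which was at 0 to 2.90 FPKM.

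Oasl2 (chromosome 5, 114896936 to 114912234, plus strand) was at 0.712 and 1.18 FPKM in WT pre-pro-B, 0.495 and 0.00999 FPKM in Lf-/- pre-pro-B, 0.389 FPKM in WT pro-B, and 1.06 and 1.14 FPKM in Lf-/- pro-B cells. Its relative Oasl1, listed at 0 in Lf-/- pre-pro-B replicate 2, was at 1.14 to 2.12 FPKM in the other libraries. Mx1 (chromosome 16, 97447035 to 97462907, minus strand) was at 0.345 and 0.647 FPKM in WT pre-pro-B, 0.450 and 1.84 FPKM in Lf-/- pre-pro-B, 0.246 FPKM in WT pro-B, and 0.0489 and 0.260 FPKM in Lf-/- pro-B cells. It passed 1 FPKM in Lf-/- pre-pro-B replicate 2 alone. A stretch of 920 bases matches its neighbour Mx2 at 94.8%, and Mx2 reached no more than 0.513 FPKM.

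In pre-pro-B cells, no interferon-stimulated gene passed the test for a difference between Lf-/- and WT. With the filter of 1 FPKM in at least 2 of the 4 libraries, 5 of the 9 genes entered the limma fit, and 0 were called at an adjusted p of 0.05. Of all 9720 genes tested, 0 (0%) were called and 284 (2.92%) had an unadjusted p below 0.05, which included none of these genes. On the scale of log2(FPKM + 1), which understates the change of low genes, Isg15 was lower in Lf-/- by 0.89 (difference -0.89, SE 0.55, adjusted p = 0.941). Since 1 library lists Isg15 at 0, that size depends on the pseudocount, and it was -2.35 with a pseudocount of 0.1. Ifit3 differed by 0.69 (SE 0.80), Ifi27l2a by 0.65 (SE 0.60), Usp18 by 0.23 (SE 0.55) and Irf7 by 0.02 (SE 0.60), with adjusted p from 0.941 to 0.996. Every SE but that of Isg15 and Ifi27l2a was larger than its difference.

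Without the filter, Ifit1 differed by -0.71 (SE 0.37), Oasl2 by -0.65 (SE 0.43), Ifit2 by -0.17 (SE 0.29) and Mx1 by 0.45 (SE 0.56), and their adjusted p lay between 0.873 and 0.9001. Ifit1, Isg15 and Oasl2 were lower in both Lf-/- libraries than in both WT libraries, 3 of 9 genes beside 17.7% of all genes tested. Of these 3 only Isg15 passed the filter, as all genes in that share did, and 1 Lf-/- library lists it at 0. None of the 9 was higher in both, beside 15.5% of all genes tested. Over the 9 genes, with those below the filter included, the median difference was 0.02 and 5 were higher in Lf-/-. The 5 that passed the filter had a median of 0.23 with 4 higher, and 1 higher without Lf-/- pre-pro-B replicate 2. Over all genes tested, which passed the filter, the median was 0.04 and 52% were higher.

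The pre-pro-B values turned on which libraries were used. Replicate 2 of Lf-/- differed from replicate 1 by a median of 0.88 in log2(FPKM + 1) over all genes, against 0.26 between the WT pre-pro-B libraries and 0.32 between the Lf-/- pro-B libraries. Ifit3 was the most extreme of the 9, with a gap of 2.24 between the Lf-/- pre-pro-B replicates. Without Lf-/- pre-pro-B replicate 2, the difference of Ifit3 turned to -0.43, Irf7 to -0.64 and Usp18 to -0.16, and that of Isg15 shrank to -0.31. Ifi27l2a then stood at 0.16, Ifit1 at -0.47, Oasl2 at -0.37, Ifit2 at 0.07 and Mx1 at -0.04, and 2 of the 9 genes were higher in Lf-/-, with a median of -0.31 against -0.10 for all genes. The difference of Ifi27l2a moved as far with the WT libraries, to 0.065 without WT pre-pro-B replicate 1 and 1.24 without WT pre-pro-B replicate 2, and it was 1.14 without Lf-/- pre-pro-B replicate 1.
Without Lf-/- pre-pro-B replicate 1, Ifit3 stood at 1.81 (adjusted p = 0.0175) and Isg15 at -1.46 (adjusted p = 0.0177), and 3338 genes in all were called. That fit compares the lone replicate 2 with WT and assumes that it varies as the WT pair did.

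**Figure D2:**
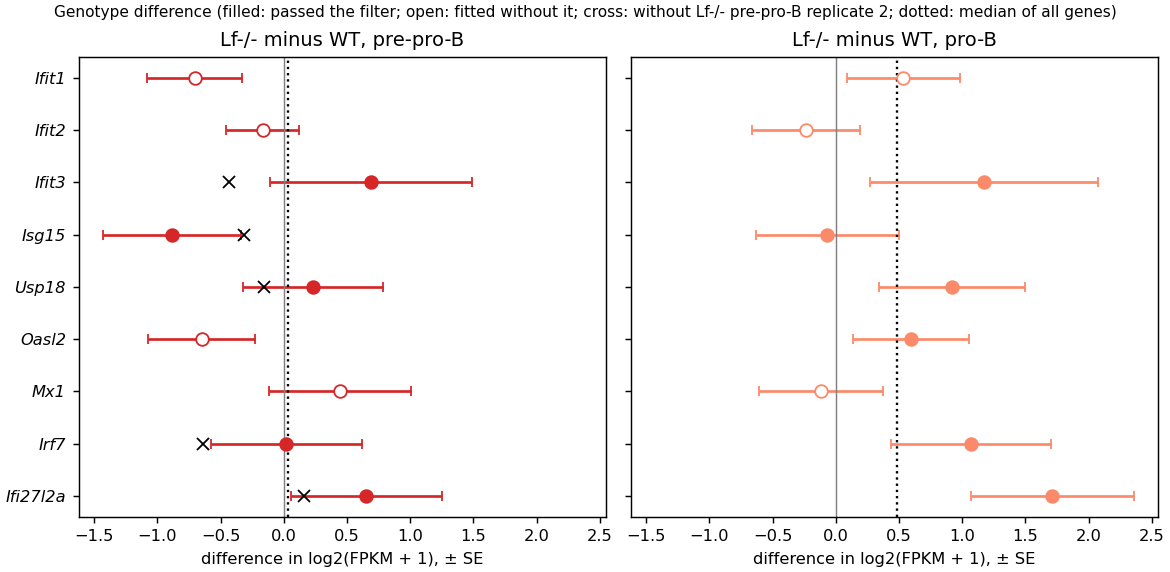
Difference between Lf-/- and WT in log2(FPKM + 1) with its SE from limma, for the 9 genes in pre-pro-B (left) and pro-B cells (right). Filled points passed the filter, open points were fitted without it, crosses leave out Lf-/- pre-pro-B replicate 2, and dotted lines mark the median of all genes, 0.04 and 0.48. In pro-B cells Ifi27l2a, at 1.71, lay farthest from 0.

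In pro-B cells, 6 of the 9 genes were higher in both Lf-/- libraries than in the WT library: Ifi27l2a, Irf7, Ifit3, Usp18, Oasl2 and Ifit1. So were 75.3% of all genes that passed the filter, which Ifit1 did not, and none of the 9 passed the test. Isg15 was lower in both Lf-/- libraries, as were 6.9% of all genes. Ifi27l2a showed the greatest difference, 1.71 (SE 0.65, unadjusted p = 0.0325, adjusted p = 0.822), with the Lf-/- libraries at 243 and 238 FPKM and the WT library at 72.7 FPKM. Ifit3 differed by 1.17 (SE 0.90), Irf7 by 1.07 (SE 0.64), Usp18 by 0.92 (SE 0.58), Oasl2 by 0.60 (SE 0.46) and Isg15 by -0.07 (SE 0.57), with adjusted p from 0.822 to 0.964. Without the filter, Ifit1 differed by 0.54 (SE 0.45), Ifit2 by -0.23 (SE 0.43) and Mx1 by -0.12 (SE 0.49). Of the 10793 genes tested, 0 (0%) were called and 467 (4.33%) had an unadjusted p below 0.05. A difference of at least 1 on this scale with both Lf-/- libraries above WT was found for Ifit3, Irf7 and Ifi27l2a, and for 12.4% of all genes. Without Lf-/- pro-B replicate 1, Ifit3 fell below that mark at 0.75 and Irf7 at 0.93, while Ifi27l2a stood at 1.70.

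The whole distribution was shifted in this comparison: the median over all genes was 0.48 and 87% were higher in Lf-/-, against a median of 0.60 with 6 of 9 higher for the interferon-stimulated genes. The 6 of the 9 that passed the filter, as all genes in that median did, had a median of 0.99 with 5 higher. The WT pro-B library held 53.6% of its FPKM in neutrophil granule genes and the Lf-/- pro-B libraries 35% and 40%. FPKM divides by the whole library. With the neutrophil granule genes taken out of the total, the median of all genes was 0.32. With median-ratio scaling, which brought the median of all genes to 0.01, Ifi27l2a differed by 1.07, Ifit3 by 0.77, Irf7 by 0.56, Usp18 by 0.48, Oasl2 by 0.36 and Isg15 by -0.46, each at an adjusted p of 1.0. Ifi27l2a, Irf7, Ifit3, Usp18, Oasl2 and Ifit1 again had the higher values in Lf-/-, and the median over the 9 was 0.36. In bulk RNA, fewer cells of a type and less RNA per cell cannot be told apart. The WT pro-B group is 1 library and was assumed to vary like the others, so a difference of that library cannot be told apart from a difference of genotype.

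Between pre-pro-B and pro-B cells, none of the 9 genes passed the test in either genotype. In Lf-/- mice, Ifit1, Isg15, Oasl2 and Irf7 were higher in both pro-B than in both pre-pro-B libraries (4 of 9, beside 26.4% of all genes), and Mx1 was lower in both (1 of 9, beside 4.84%). The shares over all genes cover those that passed the filter, which Ifit1 and Mx1 did not. Irf7 differed by 0.92 (SE 0.52), Oasl2 by 0.77 (SE 0.38) and Isg15 by 0.63 (SE 0.46), with adjusted p from 0.798 to 0.810. Usp18 at 0.11, Ifit3 at -0.21 and Ifi27l2a at -0.24 lay within their SE. These 6 genes, which passed the filter, had a median of 0.37. No gene of 10793 was called by limma in Lf-/- mice (0%), and 618 (5.73%) had an unadjusted p below 0.05. With Lf-/- pre-pro-B replicate 2 left out, 7 of the 9 genes were higher in pro-B and their median went from 0.22 to 0.44, while that of all genes went from 0.15 to 0.26. Without Lf-/- pre-pro-B replicate 1, in turn, 3027 genes were called.

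In WT mice, the pro-B library lay below both pre-pro-B libraries for 8 of the 9 genes, and above both for Ifit2. This comparison and that of the genotypes in pro-B cells share the WT pro-B library, so their values are not independent. The shares over all genes that passed the filter were 64.4% below and 9.52% above, and Ifit1, Ifit2 and Mx1 did not pass it. Ifi27l2a differed by -1.31 (SE 0.65), Ifit3 by -0.69 (SE 0.90), Usp18 by -0.58 (SE 0.58), Oasl2 by -0.47 (SE 0.46), Isg15 by -0.19 (SE 0.57) and Irf7 by -0.13 (SE 0.64), each at an adjusted p of 1.0. These 6 genes, which passed the filter, had a median of -0.53. The median over the 9 genes was -0.47 and that of all genes -0.28. With median-ratio scaling, 3 of the 9 genes were higher in WT pro-B, and the medians were -0.34 and 0.00. No gene was called (0%), and 81 (0.75%) had an unadjusted p below 0.05.

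The genotype difference itself did not pass a test of change between the stages for any of the 9 genes. The 6 that entered the fit had a more positive genotype difference in pro-B than in pre-pro-B cells. The change ran from 0.48 (SE 1.17) for Ifit3 to 1.25 (SE 0.59, adjusted p = 0.990) for Oasl2. It is signed and need not mean a difference of greater size: that of Isg15 went from -0.89 to -0.07. Over all genes, 77.1% had a more positive one too, with a median change of 0.45. No gene of 10793 was called (0%), and 296 (2.74%) had an unadjusted p below 0.05. Leaving out Lf-/- pre-pro-B replicate 2, this change ran from 0.25 for Isg15 to 1.71 for Irf7 over the 6, and leaving out replicate 1 turned that of Ifit3 to -0.64. The test rests on the lone WT pro-B library.

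The rest of the interferon pathway was read from lists of known genes, with every pathway list at 0 calls in both genotype contrasts. Shares higher in Lf-/- are given with the 2 libraries of Lf-/- pre-pro-B and, since most of them turned on it, without replicate 2 of that group. Over all genes tested, 52% were higher in Lf-/- pre-pro-B cells (40.8% without replicate 2) and 87% in Lf-/- pro-B cells. The lists are small, so even a full count in pro-B cells lies near the share of all genes. Of 16 ligand genes, 13 to 16 were listed at 0 in any library, and none reached 1 FPKM except Ifng. Ifng, the type II interferon made by T and NK cells, stood at 0.307 FPKM in WT pro-B cells against 4.34 and 2.43 FPKM for the Lf-/- libraries, a difference of 1.71 (SE 0.56, adjusted p = 0.822). The T and NK cell markers differed in the same direction in pro-B cells, with 10 of 11 higher in Lf-/- and a median of 1.69. Their summed FPKM did not follow that median, at 911 FPKM for the WT library against 467 and 1031 FPKM for the Lf-/- libraries, and their part in the Ifng value was not tested. Of the receptor genes, 4 of 5 tested were higher in Lf-/- pre-pro-B cells (1 of 5 without replicate 2) and 5 of 5 in Lf-/- pro-B cells. The pre-pro-B values of Ifnar1 were 3.33 and 2.04 FPKM for WT against 4.77 and 4.20 FPKM for Lf-/-, a difference of 0.59 (SE 0.47), and 0.67 without replicate 2. Ifngr1, the binding chain for type II interferon, was at 42.2 to 93.6 FPKM.

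Of the JAK-STAT signal carriers, 3 of 4 tested were higher in Lf-/- pre-pro-B cells, also without replicate 2. In Lf-/- pro-B cells 6 of 6 were higher, beside 87% of all genes. Stat2, which acts in the response to type I interferon, reached at most 1.18 FPKM and was listed at 0 in Lf-/- pre-pro-B replicate 2, as was the kinase gene Tyk2.

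All 6 interferon regulatory factors on their list had higher fitted values in Lf-/- pre-pro-B cells (median difference 0.68, and 5 of 6 with 0.37 without replicate 2). All 6 were higher in Lf-/- pro-B cells (median 1.299), beside 87% of all genes with a median of 0.48. Irf4, a factor of lymphocyte differentiation, had pre-pro-B values of 1.83 and 0.422 FPKM for WT against 8.38 and 7.29 FPKM for Lf-/- (difference 2.14, SE 0.53, unadjusted p = 0.00782, adjusted p = 0.941), and its difference without replicate 2 was 2.23. Irf8, which acts in B cells and in dendritic cells, had pre-pro-B values of 18.8 and 16.1 FPKM for WT against 23.7 and 57.6 FPKM for Lf-/- (difference 1.05, SE 0.55, and 0.42 without replicate 2). The WT pro-B library held 16.2 FPKM of Irf8 and the Lf-/- pro-B libraries 48.7 and 42.2 FPKM. Early B lineage markers were higher in the same libraries, as given below, and their part in these values was not tested.

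Of the nucleic acid sensors and adaptors, 7 of 10 tested were higher in Lf-/- pre-pro-B cells (4 of 10 without replicate 2). In Lf-/- pro-B cells 13 of 14 were higher, beside 87% of all genes, the share that also stands beside the pro-B counts that follow. Tmem173, which encodes the DNA-sensing adaptor STING, was at 10.3 to 12.7 FPKM in 3 pre-pro-B libraries but at 70.6 FPKM in the fourth, Lf-/- pre-pro-B replicate 2. Dhx58, a helper of RNA sensing, was at 2.32 to 4.401 FPKM in those 3 and listed at 0 in the fourth, with a difference of -1.49 (SE 0.68, adjusted p = 0.941), and -0.63 without replicate 2. Of the feedback inhibitors, 3 of 4 tested were higher in Lf-/- pre-pro-B cells (1 of 4 without replicate 2) and 5 of 5 in Lf-/- pro-B cells. Socs3, which blocks JAK kinases, had pro-B values of 0.380 FPKM for WT against 2.77 and 1.45 FPKM for Lf-/- (difference 1.14, SE 0.47). Of the enzymes that attach ISG15, 3 of 3 tested were higher in Lf-/- pre-pro-B cells (1 of 3 without replicate 2) and 3 of 3 in Lf-/- pro-B cells. The conjugating enzyme gene Ube2l6 was at 16.8 and 216 FPKM in the Lf-/- pre-pro-B libraries, so its difference of 0.91 (SE 1.22) was smaller than its error and turned to -0.90 without replicate 2.

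A further 54 interferon-stimulated genes gave 33 tested in pre-pro-B cells, of which 23 were higher in Lf-/- (median 0.37, against 0.04 for all genes). When replicate 2 of Lf-/- pre-pro-B was left out, 12 of the 33 were higher and the median turned to -0.18, against -0.10 for all genes. In pro-B cells 38 were tested and 36 were higher (94.7%, median 0.77), against 87% and 0.48 for all genes. Bst2, an antiviral tether that plasmacytoid dendritic cells also carry, was at 18.6 and 13.1 FPKM in WT pre-pro-B, 25.8 and 104 FPKM in Lf-/- pre-pro-B, 16.1 FPKM in WT pro-B, and 76.9 and 82.5 FPKM in Lf-/- pro-B cells. Its pro-B difference of 2.24 (SE 0.78, adjusted p = 0.822) was the greatest of these 38. Cxcl10, a chemokine, went the other way at -1.92 in pre-pro-B (SE 0.98, and -0.58 without replicate 2) and -0.89 in pro-B cells (SE 1.07). Of these 54 genes, 18 were listed at 0 in Lf-/- pre-pro-B replicate 2 and 2 to 4 in each of the other libraries. Of the 13 GTPase genes known for their response to interferon gamma, 4 of 7 tested were higher in Lf-/- pre-pro-B (2 of 7 without replicate 2) and 8 of 8 in Lf-/- pro-B cells. Of those 13, 7 were listed at 0 in Lf-/- pre-pro-B replicate 2.

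**Figure D3:**
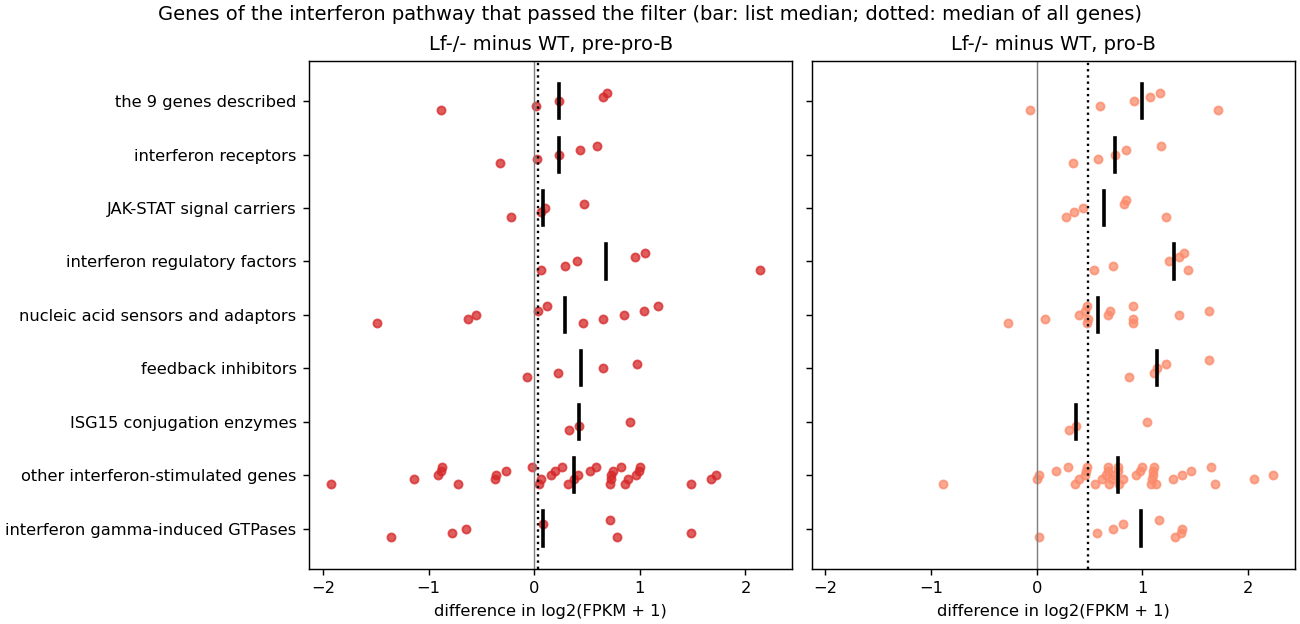
Difference between Lf-/- and WT in log2(FPKM + 1) for the genes of each interferon list that passed the filter, with a point per gene, a bar at the list median and a dotted line at the median of all genes (0.04 in pre-pro-B, 0.48 in pro-B cells). In pro-B cells most points of every list lie above 0, as does the median of all genes.

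Markers of plasmacytoid dendritic cells, the main makers of type I interferon, were read beside these genes because such cells carry B220, a surface protein used to sort early B cells. Siglech, their defining surface lectin on the list, was at 3.94 and 7.31 FPKM in WT pre-pro-B, 1.98 and 43.8 FPKM in Lf-/- pre-pro-B, 7.76 FPKM in WT pro-B, and 16.7 and 34.04 FPKM in Lf-/- pro-B cells. It was thus highest in Lf-/- pre-pro-B replicate 2 and lowest in replicate 1 of the same group. The 10 markers summed to 518 and 339 FPKM in WT pre-pro-B, 2440 and 3273 FPKM in Lf-/- pre-pro-B, 227 FPKM in WT pro-B, and 1160 and 1257 FPKM in Lf-/- pro-B cells. Ly6d, which early B cells carry as well, made up 58.9% to 93.7% of these sums. Without Ly6d the other 9 summed to 70.7 and 81.1 FPKM, 153 and 401 FPKM, 93.3 FPKM, and 224 and 358 FPKM in the same order of groups. Of the list, 6 of 7 tested were higher in Lf-/- pre-pro-B cells (median 0.85), 3 of 7 without replicate 2 (median -0.37), and 9 of 9 in Lf-/- pro-B cells. Over all genes tested, 52% were higher in Lf-/- pre-pro-B and 87% in Lf-/- pro-B cells. Klk1 was listed at 0 in Lf-/- pre-pro-B replicate 2.

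The 15 early B lineage markers summed to 621 and 596 FPKM in WT pre-pro-B, 3579 and 2470 FPKM in Lf-/- pre-pro-B, 231 FPKM in WT pro-B, and 2951 and 1634 FPKM in Lf-/- pro-B cells. In both lists the summed level of every Lf-/- library lay above that of every WT library, also with Ly6d left out, but Siglech alone overlapped between genotypes. None of the 9 interferon-stimulated genes separated every Lf-/- from every WT library.

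Neutrophil granule markers summed to 178204 FPKM in Lf-/- pre-pro-B replicate 2 and to 447290 FPKM in WT pro-B, with the other 5 libraries between 257086 and 317373 FPKM. WT pro-B, with the most neutrophil signal, was also the lowest library for Ifit3, Ifi27l2a and Usp18. Monocyte and macrophage markers summed to 15585 to 24929 FPKM, and the sums of both Lf-/- libraries lay below those of the WT libraries at each stage. Of 13 tested, 3 were higher in Lf-/- in pre-pro-B cells (median -0.395), but 8 in pro-B cells (median 0.33). Their share of all FPKM in pro-B cells was 2.62% for the WT library against 2.69% and 2.65% for the Lf-/- libraries. T and NK cell markers summed to 465 to 1302 FPKM, with 5 of 12 listed at 0 in Lf-/- pre-pro-B replicate 2. Erythroid markers summed to 15003 to 105933 FPKM, highest in Lf-/- pre-pro-B replicate 2. The part of these cell types in the values of the 9 genes was not tested.

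**Figure D4:**
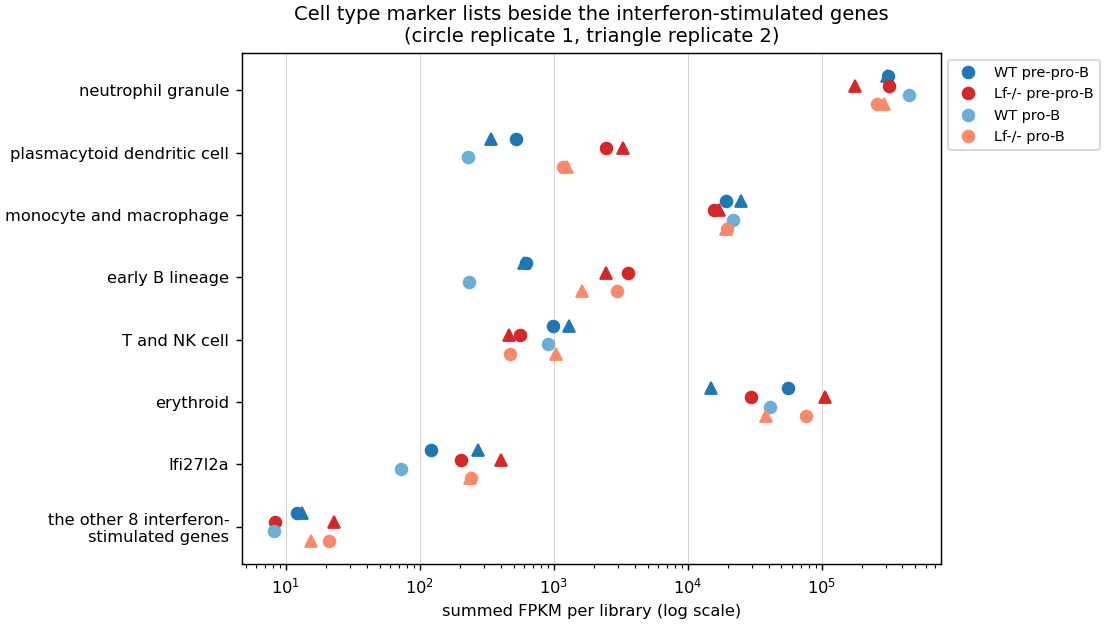
Summed FPKM (log scale) of 6 cell type marker lists, of Ifi27l2a and of the other 8 interferon-stimulated genes, with a point per library. The sums of plasmacytoid dendritic cell markers, mostly Ly6d, and of early B lineage markers separated every Lf-/- from every WT library, while the 8 genes overlapped between genotypes.

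The 9 genes did not share 1 profile. Their mean standardized level was highest in Lf-/- pro-B replicate 1 (0.62) and lowest in WT pro-B (-0.61), but only Ifit1, Ifit2 and Irf7 peaked in the former, where Mx1 was at its lowest, and only Ifit3, Usp18 and Ifi27l2a were lowest in the latter. Over the 7 libraries and 4854 genes with a mean of at least 5 FPKM, the profiles most like this mean were those of Pclaf (Pearson r = 0.991), Cdkn2aipnl (0.956), Taf7 (0.955), Smpd1 (0.952) and Gtf2e2 (0.951). Pclaf was at 33.7 and 36.3 FPKM in WT pre-pro-B, 30.1 and 34.4 FPKM in Lf-/- pre-pro-B, 26.4 FPKM in WT pro-B, and 40.5 and 35.1 FPKM in Lf-/- pro-B cells. In all, 48 genes had r of at least 0.9. Of 22 other interferon-stimulated genes compared, 11 had r of at least 0.5, beside 33.7% of all genes. These are descriptions over 7 points that share libraries and depth.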

How the data were processed

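Cells were sorted by the authors from bone marrow and RNA was sequenced on a NovaSeq instrument. The submitters' processing notes name TopHat, Cufflinks, HTSeq, DESeq and GRCm38, with no role or version. The authors deposited 1 table per library with 1 value per gene. The unit of the deposited values was taken to be FPKM because they are not whole numbers and fall on even steps once multiplied by transcript length. The step was read in single-transcript genes of 800 bases or more (tolerance 0.05). It held 23.1% to 33.7% of low values in 6 libraries, where 10% lie by chance, and 13.7% in Lf-/- pre-pro-B replicate 2, whose depth is therefore not given. The limit of reading was set after seeing these shares. Intervals from counting error were not computed.

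Genes were matched by identifier to GENCODE M21 (52403 of 52550). Values were tested as log2(FPKM + 1) with limma 3.58.1 in R 4.3.3, with a mean-variance trend, 2-sided tests and Benjamini-Hochberg adjustment over all genes. Genotype in pre-pro-B cells was fitted on its 4 libraries, and the other contrasts on all 7 with group means, and a gene was kept if 2 or more libraries of the fit reached 1 FPKM. The study's methods do not say whether the p they call genes by was adjusted, and adjusted values are used here. The fit was also run on simulated data with known changes, and the outcome of that run is not given here. Transcripts of related genes were aligned with blastn 2.17.0. Alternatives were the pseudocount (0.1), the filter, 3 scalings, each library left out, a replicate block and the libraries in the fit.

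The 9 genes and the lists were chosen with earlier results of these data known. All 9 are named. From each other interferon list the text names genes among the up to 4 with the largest pre-pro-B difference that reached 1 FPKM in at least 2 libraries, and it also names relatives of the 9 genes by symbol, the 5 genes most like their mean profile, Ltf, Siglech and Ly6d. The last 2 were added after their values were seen, as was leaving out a Lf-/- pre-pro-B library for the lists and for genotype by stage, where only values are given.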

Additional observations from a re-analysis of the deposited data

Results flagged for a closer look

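For Ifit1 and Oasl2, both Lf-/- libraries lay below both WT libraries in pre-pro-B cells and above the WT library in pro-B cells. Ifit1 was at 0.872 and 0.959 FPKM in WT against 0.379 FPKM and listed at 0 in Lf-/- pre-pro-B cells, and at 0.292 FPKM in WT against 1.41 and 0.451 FPKM in Lf-/- pro-B cells. Its genotype difference in pro-B minus that in pre-pro-B was 1.24 (SE 0.57, unadjusted p = 0.0916, adjusted p = 0.842, limma without the filter). That of Oasl2 was 1.25 (SE 0.59, unadjusted p = 0.0732, adjusted p = 0.990). Neither passed the test, and both rest on the lone WT pro-B library and, in part, on Lf-/- pre-pro-B replicate 2, where Oasl2 was at 0.00999 FPKM. Without that library the values were 1.01 for Ifit1 and 0.97 for Oasl2. Over all genes that passed the filter, which Ifit1 did not, 77.1% had a more positive genotype difference in pro-B cells.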

How the results depend on the processing

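Of the alternative values of single genes, 49 kept their direction and side of the threshold in pre-pro-B cells, 9 reversed and 2 passed the threshold. In pro-B cells 75 kept both and 1 reversed. Irf7 in pre-pro-B (0.02) turned to -0.033 with a pseudocount of 0.1, -0.13 with median-ratio scaling, -0.25 with quantile normalization, -0.065 with the neutrophil granule genes out of the total, -0.10 without WT pre-pro-B replicate 2 and -0.64 without Lf-/- pre-pro-B replicate 2, and stood at 0.68 without Lf-/- pre-pro-B replicate 1. Without Lf-/- pre-pro-B replicate 2, Ifit3 turned to -0.43 and Usp18 to -0.16, and Usp18 to -0.17 without WT pre-pro-B replicate 1. Without Lf-/- pre-pro-B replicate 1, Ifit3 (1.81) and Isg15 (-1.46) passed the threshold.

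Counts of genes called, 0 as reported in each comparison, became 256 for genotype in pro-B, 240 for stage in WT and 122 for genotype by stage with no filter. With 1 library left out they ran from 0 to 3338 for genotype in pre-pro-B, 0 to 1 for genotype in pro-B, 0 to 3027 for stage in Lf-/-, 0 to 1 for stage in WT and 0 to 561 for genotype by stage. The highest of each came without Lf-/- pre-pro-B replicate 1. Without WT pre-pro-B replicate 1 or 2, 16 and 24 genes were called for genotype in pre-pro-B. In the genotype comparisons within a stage, Ifit3 and Isg15, as given above, were the only calls among the members that passed the filter. Ifit1, Ifit2 and Mx1 at both stages were tested only without the filter, and Oasl2 in pre-pro-B cells only without it and with all 7 libraries.

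The median of the 9 genes in pro-B cells was 0.36 with median-ratio scaling and 0.33 with quantile normalization. With 1 library left out it ran from -0.31 to 0.62 for genotype in pre-pro-B, 0.63 to 0.90 for genotype in pro-B, 0.11 to 0.52 for stage in Lf-/- and -0.60 to -0.26 for stage in WT. The cause of these changes was not tested.

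Same-numbered libraries did not deviate together (correlations 0.04, 0.05 and -0.01), and the main fits did not take the numbers as pairs. Only the last value, between the Lf-/- stages, bears on a mouse shared by both stages. It includes Lf-/- pre-pro-B replicate 2, which stood apart, so it cannot decide whether the libraries are paired. With the replicate number as a block, 65 genes were called for genotype in pre-pro-B and Isg15 in pro-B turned to 0.15. With the mouse label as the block, 107 were called for stage in Lf-/-, 29 for stage in WT and 29 for genotype by stage. Depth limits genes near 1 FPKM, which rest on few fragments.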

Other observations

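Among the 9 genes and the 54 others on the list, the highest levels were not those of the 9. Ifitm2 and Ifitm3, named after their values were seen, encode membrane proteins that restrict virus entry and lay at 584 to 1573 FPKM and 583 to 1565 FPKM. Their WT pre-pro-B replicates were as far apart as 746 and 1573 FPKM for Ifitm2. In pre-pro-B cells Ifitm3 differed between Lf-/- and WT by -0.92 (SE 0.51, adjusted p = 0.941, limma) and in pro-B cells by 0.00 (SE 0.56). Neither gene passed the test at either stage.

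Of 41 other interferon-stimulated genes with a RefSeq promoter window, 19 held the letters GAAANNGAAA on either strand, beside 3.44% of all 32851 windows.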
